A study of Mus musculus with 4 samples.

Results

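Sox4, Sox9 and Cd44 are 3 genes known as Wnt targets of dividing intestinal progenitors, and they were examined here through every probe set (a group of short oligonucleotides read as 1 value) that the platform annotation names for 1 of them alone. This gave 15 of the 45101 probe sets on the array, of which 8 belonged to Sox4, 3 to Sox9 and 4 to Cd44. The samples were epithelial crypts cut from mouse intestine by laser capture microdissection, 2 from control animals and 2 from animals whose beta-catenin gene had been deleted, all taken 2 days after tamoxifen induced the deletion. Transcripts were amplified in 2 rounds before hybridisation to 1 single-colour array per sample. The labels name neither the Cre driver, the floxed allele, the genotype or tamoxifen treatment of the controls, the strain, the age nor the intestinal segment. Whether the replicates came from separate animals is not said there, so the p-values reflect the spread among these arrays alone, which may be technical.

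Wnt signals stabilise beta-catenin, which enters the nucleus and, bound to TCF factors, activates target genes that keep crypt base cells dividing. SOX4 and SOX9 are transcription factors with an HMG-box DNA-binding domain. In the gut SOX9 is known from crypt base and Paneth cells, where it is needed for Paneth cells to form, and SOX4 from progenitors. CD44 is a cell surface receptor for hyaluronan, made in many splice forms, and in the crypt it is known from the proliferating compartment; lymphocytes and stromal cells also make it.

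For Sox4 and Cd44 the 250 bases before the transcription start were read from RefSeq (build GRCm38.p6), because beta-catenin reaches its targets through TCF factors on DNA. Sox4 lies on the minus strand at chr13:28953700-28953949 and Cd44 on the minus strand at chr2:102901666-102901915. Both are written 5′ to 3′ on the strand of the gene, with the letters of CCAAT or its reverse complement ATTGG in capitals.
Sox4: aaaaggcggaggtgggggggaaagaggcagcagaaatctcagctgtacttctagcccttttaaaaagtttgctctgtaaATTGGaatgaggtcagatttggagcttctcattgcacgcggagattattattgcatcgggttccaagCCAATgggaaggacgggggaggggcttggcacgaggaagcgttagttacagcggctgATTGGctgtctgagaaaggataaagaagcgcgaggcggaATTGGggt
Cd44: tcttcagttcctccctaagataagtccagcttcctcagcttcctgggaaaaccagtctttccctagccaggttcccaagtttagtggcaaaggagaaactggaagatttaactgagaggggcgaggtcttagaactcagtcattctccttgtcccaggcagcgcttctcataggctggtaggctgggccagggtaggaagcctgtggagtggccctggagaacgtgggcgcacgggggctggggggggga
Searched on both strands for the TCF motif spellings CTTTGAT and CTTTGAA, the Sox4 and Cd44 windows held 0 matches, while 7.48% of 32851 promoter windows of this length held at least 1. The Axin2 window also held 0. CCAAT, the letters bound by the factor NF-Y, was searched after the sequences had been read. It matched 4 times in the Sox4 window, beginning 171, 104, 47 and 8 bases before the start, and 0 times in that of Cd44. At least 1 match occurred in 33.8% of all windows and 4 or more in 0.84%. A match is a description of letters and not a binding site.

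Values were log2(signal + 5) after quantile scaling, a scale on which the change of dim probe sets is understated, and probe sets whose mean over the arrays reached the median of all probe sets, 4.79, were kept for the test. Ctnnb1, which encodes beta-catenin, stood at 12.43 and 12.56 in control arrays against 12.02 and 11.85 in mutant arrays by its brighter probe set, a difference of -0.56 (SE 0.22). Its dimmer kept probe set differed by 0.38 (SE 0.50). The labels do not name the deleted exons, and a probe set outside them does not check the labels.

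Among the kept probe sets, at least 1 of each gene had both mutant arrays below both controls, and in Sox4 and Cd44 other kept probe sets did not. Of all kept probe sets, 18.9% had the groups apart with mutants lower and 17.3% with mutants higher. These are shares of single probe sets, and a gene with several kept ones is more easily counted through at least 1 of them. For Sox9 1424950_at the groups overlapped in the unscaled values. Of the 15 probe sets 7 were kept: 3 for Sox4, 2 for Sox9 and 2 for Cd44. In mutant crypts the brightest Sox4 probe set was 2.53-fold lower, 1 Sox9 probe set was 2.45-fold lower and the other 1.46-fold lower. For Cd44, 1 probe set was 1.58-fold lower and the other, brighter one differed by 0.02 on the log2 scale. In bulk tissue, fewer cells of a type and less RNA per cell cannot be told apart. None of the 7 passed the test over all kept probe sets (limma, Benjamini-Hochberg adjusted p from 0.768 to 0.993), and neither did any other of the 22519 kept probe sets (0%). At an unadjusted p under 0.05, 1415 of all kept probe sets and 2 of the 7 were counted; both of the latter were lower in mutants, a direction in which 3.54% of all kept probe sets were counted, against 2.74% in the other.

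**Figure D1:**
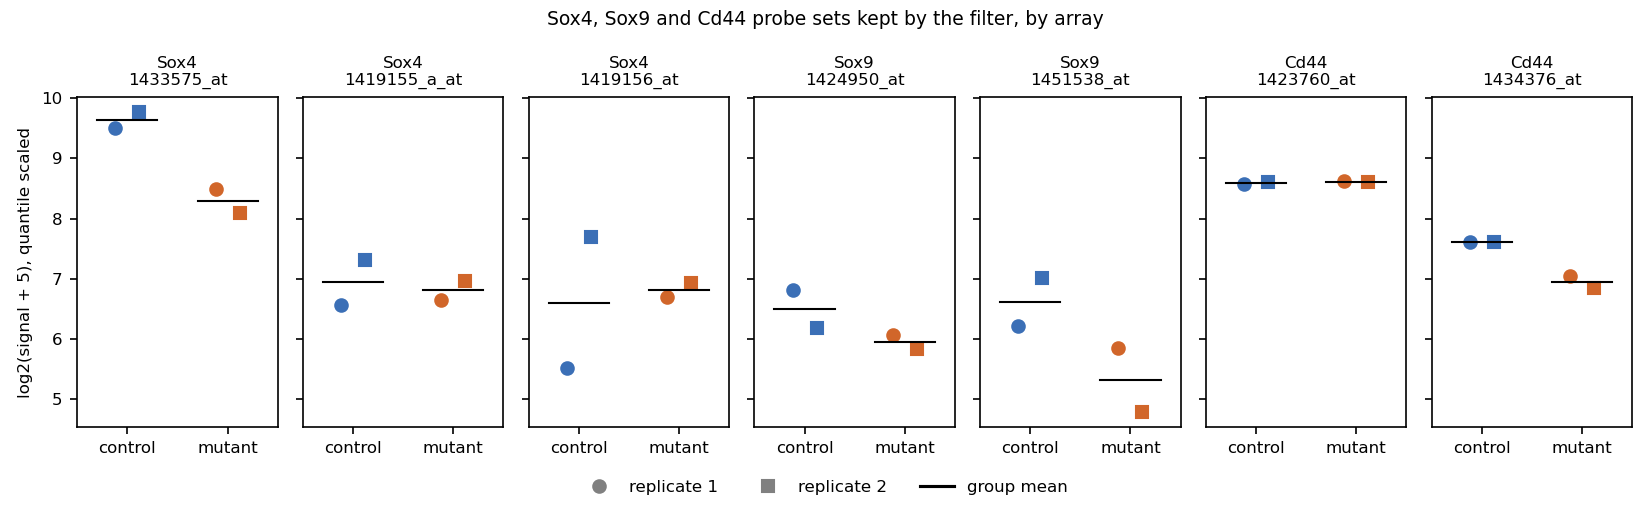
Log2(signal + 5) after quantile scaling of the 7 kept probe sets in each array, with circles for replicate 1, squares for replicate 2 and lines for group means. Sox4 1433575_at, both Sox9 probe sets and Cd44 1434376_at have every mutant value below every control value; the other 3 overlap.

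Among the Sox4 probe sets kept, 1433575_at alone separated the groups. Its deposited signals were 668 and 847 in control replicates 1 and 2, while mutant replicates 1 and 2 gave 455 and 213. After scaling these stood at 9.51 and 9.76 against 8.49 and 8.09 on the log2 scale. Both mutant arrays lay below both controls. On the scaled values the gap between the nearest ones, 1.01, exceeded the distance between replicates in either group (0.26 and 0.40). This depended on the scaling, since among the deposited signals the mutant replicates lay further apart than the nearest control and mutant values. The difference was -1.34 (SE 0.34; 95% interval -2.12 to -0.57; limma, adjusted p = 0.768). Leaving out any 1 array gave differences from -1.54 to -1.14. The difference was -1.26 (SE 0.53) with the deposited values unscaled and -1.14 (SE 0.61) with median centring.

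The other kept Sox4 probe sets did not separate the groups. Probe set 1419155_a_at stood at 6.57 and 7.32 in control arrays against 6.66 and 6.97 in mutant arrays, a difference of -0.13 (SE 0.40). Probe set 1419156_at stood at 5.51 and 7.70 in control arrays against 6.69 and 6.94 in mutant arrays, a difference of 0.21 (SE 0.64). In both, the mutant values lay between the control values. For 1419156_at the distance between the controls was 2.19, and its difference turned to -0.88 when control replicate 1 was left out and stood at 1.30 when control replicate 2 was. For 1419155_a_at the sign turned to 0.24 without control replicate 2 and 0.02 without mutant replicate 1. The annotation ties these probe sets, with 2 of the dim ones, to 1 sequence record, and 1433575_at to another.

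Levels of different probe sets cannot be compared, but the change of their ratio from array to array can be described. The part of RNA length, which differed between the arrays as given below, in such a change was not tested. The log2 value of 1433575_at minus that of 1419155_a_at was 2.94 and 2.44 in control arrays against 1.84 and 1.13 in mutant arrays. Minus that of 1419156_at it was 3.99 and 2.06 against 1.80 and 1.16. The within-array difference was smaller in both mutant arrays than in both controls, by 1.21 and 1.55 on average. An exact two-sided permutation test gave p = 0.333 for each, the smallest that 2 arrays against 2 allow, and 0.556 after adjustment over the 5 pairs of probe sets compared in the 3 genes.

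Sox9 had 2 kept probe sets, both annotated to the same sequence record and both lower in the mutants. Probe set 1451538_at had deposited signals of 77.7 and 125 in control arrays against 60.4 and 19.6 in mutant arrays. On the scaled log2 values, 6.21 and 7.02 stood against 5.86 and 4.79, with mutant replicate 2 the lowest. The difference was -1.29 (SE 0.49; 95% interval -2.41 to -0.17; limma, adjusted p = 0.785). The mutant replicates lay 1.07 apart, more than the 0.35 between the nearest control and mutant values, so that the difference was -0.76 without mutant replicate 2 and -1.82 without mutant replicate 1.

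Sox9 probe set 1424950_at had deposited signals of 114 and 64.1 in control arrays against 71.6 and 41.8 in mutant arrays, which overlap. Scaling placed them at 6.81 and 6.18 against 6.06 and 5.83, with a gap of 0.12 between the groups. The difference was -0.55 (SE 0.39; 95% interval -1.45 to 0.35). Without control replicate 1 it stood at -0.23, and at -0.87 when control replicate 2 was left out. The order of the control arrays was opposite in the 2 probe sets, control replicate 1 being higher in 1424950_at and control replicate 2 in 1451538_at. The within-array difference of the 2 probe sets did not separate the groups (exact permutation p = 0.667; adjusted p = 0.833).

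Cd44 is annotated in RefSeq with 6 curated transcripts, against 1 each for Sox4 and Sox9, and its 2 kept probe sets differed in outcome. Probe set 1423760_at had deposited signals of 360 and 386 in control arrays against 502 and 309 in mutant arrays. After scaling the values were 8.57, 8.61, 8.62 and 8.60, so that all 4 arrays lay within a narrow band. The difference was 0.02 (SE 0.33) and the 95% interval, -0.72 to 0.77, reaches in both directions beyond the difference of the other Cd44 probe set.

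Cd44 probe set 1434376_at had deposited signals of 192 and 192 in control arrays against 156 and 86.4 in mutant arrays. On the scaled log2 values 7.61 and 7.60 stood against 7.05 and 6.85, with both mutants lower by more than the distance within either group. Among the deposited signals this was not so, the mutant replicates lying further apart than the nearest control and mutant values. The difference was -0.66 (SE 0.35; 95% interval -1.45 to 0.13; limma, adjusted p = 0.798), and it lay between -0.76 and -0.56 with 1 array left out. The log2 value of 1423760_at minus that of 1434376_at was 0.96 and 1.004 in control arrays against 1.57 and 1.76 in mutant arrays, a change of 0.68 (exact permutation p = 0.333, the smallest possible; adjusted p = 0.556). Which transcripts each probe set reads was not tested.

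**Figure D2:**
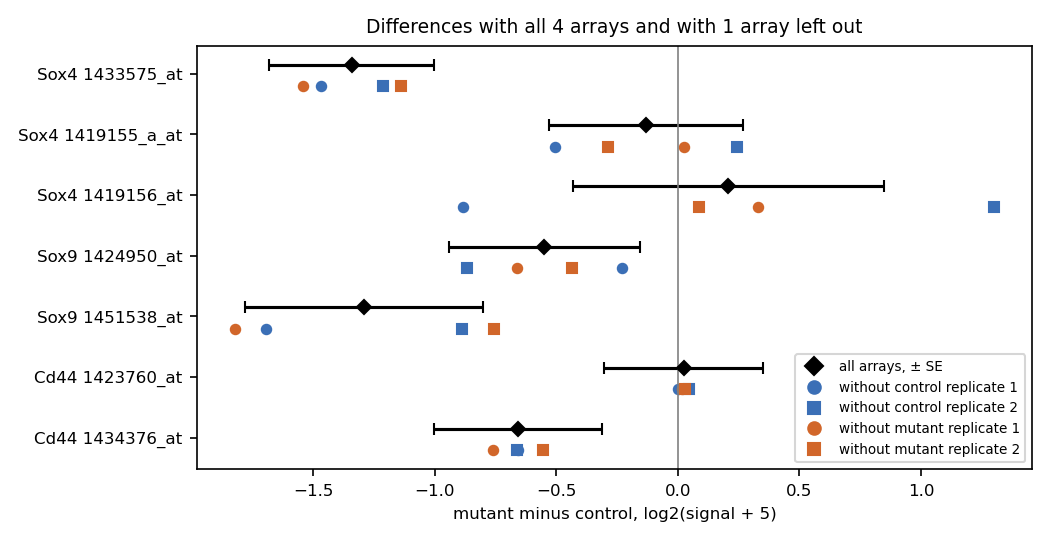
Mutant minus control difference in log2(signal + 5) of the 7 kept probe sets, with black diamonds and SE bars for the fit on 4 arrays and coloured points for fits with 1 array left out. Sox4 1433575_at, both Sox9 probe sets and Cd44 1434376_at stay below 0, while Sox4 1419156_at runs from -0.88 to 1.30.

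The remaining 8 probe sets, 5 for Sox4, 1 for Sox9 and 2 for Cd44, were dim, with deposited signals between 0.697 and 37.4. Among them Sox4 1455867_at stood at 4.62 and 4.57 in control arrays against 3.20 and 3.90 in mutant arrays, and Cd44 1443265_at at 2.68 and 3.495 against 2.50 and 2.53; in these 2 the groups did not overlap. Sox4 1449370_at stood at 4.23 and 5.53 against 4.24 and 4.13, and Sox9 1433889_at at 4.29 and 4.27 against 3.12 and 5.12. Fitted without the filter, all 15 probe sets failed the test. Over all 15, 11 were lower and 4 higher in the mutants, where 49.9% of all probe sets were lower. Of the 7 kept ones 5 were lower, against 50.2% of kept probe sets. The groups were apart with mutants lower in 6 and with mutants higher in 0, against 17.6% and 16.7% of all 45037 probe sets. Among the kept ones, 4 of 7 were apart and lower, against 18.9% of kept probe sets, and 0 apart and higher, against 17.3%. With the deposited values unscaled, 3 of the 7 were apart and lower (15.8% of kept probe sets), Sox9 1424950_at being the one that overlapped. With median centring 4 of the 7 were apart and lower, and the shares of all kept probe sets were 11.8% lower and 17.4% higher.

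Axin2, the feedback inhibitor that serves as a standard readout of the pathway, had deposited signals of 234 and 514 in control arrays against 85.5 and 85.1 in mutant arrays, and differed by -1.92 (SE 0.46). Both Axin2 mutant values lay below both controls, as for the bright Sox4 probe set.

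Of 30 other Wnt target genes listed, 22 had a kept probe set, and 18 of these were lower and 4 higher in the mutants, with 0 past the test over all probe sets (limma). The groups were apart with mutants lower in 10 of the 22 (18.9% of all kept probe sets) and higher in 2 (17.3%), and the median difference was -0.51, against -0.0024 over all kept probe sets. The list was chosen with earlier results of these data known and is not independent evidence of its direction. Next to Axin2, the smallest p-values belonged to the ion cotransporter gene Slc12a2 at -1.13 (SE 0.32), Rnf43, whose product takes Wnt receptors off the cell surface, at -1.25 (SE 0.38), and the feedback inhibitor Nkd1 at -1.30 (SE 0.44). The median was -0.29 without mutant replicate 1 and -0.25 with median centring, and -0.33 with no filter. The list shares 7 measured genes with the crypt base stem cell list. Among the other 15, a subset formed after the values were seen, 11 were lower, the groups were apart with mutants lower in 3 and higher in 2, shares near the 18.9% and 17.3% of all kept probe sets, and the median was -0.18. On the quantile-scaled values, Axin2 alone of the 22 genes had a difference below that of Sox4 1433575_at. This order depends on the scaling. With the deposited values unscaled, that Sox4 probe set differed by -1.26, and Nkd1 and Rnf43 fell further. Deposited signals of Nkd1 were 49.1 and 52.2 in control arrays against 17.9 and 13.6 in mutant arrays. Those of Rnf43 were 121 and 137 against 46.2 and 47.8.

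Of 18 other SOX genes, all with a probe set, 4 had one that was kept. Sox21 stood at 6.58 and 6.31 against 5.96 and 5.99 (difference -0.47, SE 0.36) and Sox12 at 5.82 and 5.98 against 5.27 and 5.65 (-0.44, SE 0.39), both with mutants lower. Sox13 stood at 5.81 and 6.48 against 6.60 and 6.70 (0.50, SE 0.39) and the groups of Sox6 overlapped (-0.30, SE 0.52). Their median was -0.37, and 0 of 4 passed the test. It stood at -0.04 without mutant replicate 2, at -0.11 without control replicate 1 and at -0.25 with the mean of each gene's kept probe sets; with no filter the median of the family was -0.11.

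The list called CD44 partners here holds CD44 ligands, hyaluronan enzymes, other hyaluronan receptors, cytoskeletal linkers, co-receptors and shedding proteases, so not all bind CD44. Of its 14 measured genes, 5 were lower and 9 higher, and 0 passed. The groups were apart with mutants higher in 5 (17.3% of all kept probe sets) and lower in 0 (18.9%). These counts read each gene through 1 probe set. For Lyve1 and Adam17, both among the 5, the only other kept probe set had the opposite sign. So did every other kept probe set of Hmmr, Rdx and Ezr, while that of Adam10 had the same sign. The median was 0.11, but -0.01 without mutant replicate 1, 0.40 without mutant replicate 2 and 0.29 with median centring. Cd74, the invariant chain that pairs with CD44 as a receptor for the cytokine MIF and also serves antigen presentation, stood at 8.51 and 9.38 in control arrays against 10.09 and 9.99 in mutant arrays (1.10, SE 0.37). The hyaluronidase gene Hyal2 differed by 0.64 (SE 0.39), Nf2, whose product merlin binds the CD44 tail, by 0.54 (SE 0.34), and the shedding protease gene Adam10 by -0.42 (SE 0.33). Of 7 splicing factors that act on CD44 exons, 6 were lower and 1 higher, the groups were apart with mutants lower in 2 and higher in 0, and 0 passed the test. The 2 were Srsf1 at -0.29 (SE 0.23) and Tra2b at -0.33 (SE 0.26), both RNA-binding splicing regulators. The list median was -0.13 and turned to 0.09 with median centring; it was -0.03 without mutant replicate 1 and -0.46 without mutant replicate 2. Esrp1 and Esrp2, which promote the epithelial splice forms and were chosen after their values were seen, differed by 0.01 (SE 0.40) and -0.0020 (SE 0.37).

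Among 4 genes reported to respond to SOX9 in gut epithelium, 2 were lower and 2 higher and 0 passed. Muc2, the main goblet cell mucin, stood at 11.22 and 11.59 in control arrays against 12.21 and 12.68 in mutant arrays (1.04, SE 0.27). Igfbp4, a binding protein of insulin-like growth factors, differed by -0.39 (SE 0.33), and of its 4 other kept probe sets 2 had the opposite sign. The intestinal homeobox gene Cdx2 differed by -0.08 (SE 0.44). The adhesion gene Ceacam1 differed by 0.0089 (SE 1.16).

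**Figure D3:**
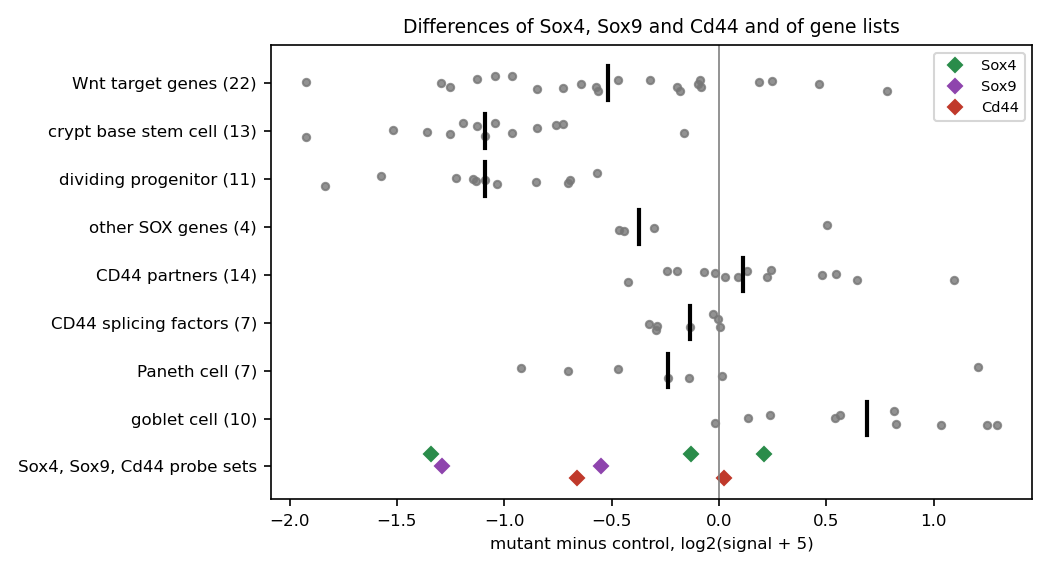
Mutant minus control difference in log2(signal + 5) for the kept probe sets of Sox4, Sox9 and Cd44 (diamonds) and for 1 probe set per gene in 8 lists (grey points, with the number of measured genes in brackets and the median as a bar). The stem cell and dividing progenitor lists both have a median of -1.09, and the goblet cell list lies at 0.69. The lowest Sox4 and the lowest Sox9 value lie below -1.09, the other diamonds lie above it, and the median of the 7 diamonds is -0.55.

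Patterns over the 4 arrays were compared with those of 11394 other genes, by the Euclidean distance between log2 values centred on their own mean. Each gene was represented by its brightest kept probe set. For Sox4, Sox9 and Cd44 these were 1433575_at, 1424950_at and 1423760_at. Their other kept probe sets, whose patterns differ from these, were not compared. Nearest to Sox4 were the homeobox repressor gene Tgif2 (distance 0.12), Dtwd2 (0.13), and Dek (0.14), which encodes a chromatin protein. Dek stood at 11.08 and 11.34 in control arrays against 10.00 and 9.79 in mutant arrays. Nearest to Sox9 were the deubiquitinase gene Otud6b (0.06), the sphingosine phosphate phosphatase gene Sgpp1 (0.07) and Ppp1cb (0.08), a catalytic subunit of protein phosphatase 1. Nearest to Cd44 1423760_at were Tpt1 (0.04), Sdhaf4 (0.04) and Usp8 (0.04), all flat over the arrays. A distance under 0.2 was found for 6 genes around Sox4, 48 around Sox9 and 406 around Cd44. These points are 4 arrays, and with so few, nearness is a description.

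Cell types in the captures were followed with marker lists, in which a measured gene is one with a kept probe set. Crypt base stem cell markers were lower in 13 of 13 measured genes and dividing progenitor markers in 11 of 11. Their median differences were -1.09 for both, with 0 past the test. Over these genes the means were 8.42 and 8.86 in control arrays against 7.39 and 7.74 in mutant arrays, and 9.58 and 10.10 against 8.59 and 8.94. Of all kept probe sets 50.2% were lower. The marker lists were chosen with earlier results of these data known and are not independent evidence of their direction. The stem cell list shares 7 measured genes, Axin2 among them, with the Wnt target list. Without control replicate 2 the progenitor median was -0.63. Paneth cell markers, of interest beside Sox9, had list means of 9.89 and 10.13 against 10.05 and 9.61, with 5 of 7 lower; Clps among them, which is also a pancreatic gene, stood at 12.95 in mutant replicate 1. Without Clps, left out after its values were seen, the means of the other 6 were 9.85 and 10.08 against 9.57 and 9.54. The median of the 7 was -0.24 and turned to 0.12 with median centring. Goblet cell markers were higher in 9 of 10, enterocyte markers in 9 of 11, tuft cell markers in 5 of 7 and enteroendocrine markers in 6 of 11, with 0 past the test in each list. The tuft median turned from 0.37 to -0.32 without mutant replicate 1, and without control replicate 2 the enterocyte and enteroendocrine medians turned from 0.32 to -0.01 and from 0.24 to -0.03. The brush border gene Vil1, a marker of gut epithelium chosen after its values were seen, stood at 11.997 and 11.33 in control arrays against 12.13 and 11.84 in mutant arrays. The part of these cell types in the Sox4, Sox9 and Cd44 values was not tested.

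For Cd44, which blood and stromal cells also make, the mean over 7 measured T cell markers was 6.92 and 5.86 in control arrays against 7.42 and 6.16 in mutant arrays, with 6 of 7 higher. Their median difference turned from 0.40 to -0.51 without mutant replicate 1 and to -0.32 without control replicate 2. Over 9 measured myeloid markers the mean was 7.25 and 7.16 against 7.05 and 7.17, with 7 of 9 lower and a median of -0.04 that turned to 0.04 without control replicate 1, 0.01 without control replicate 2, 0.10 without mutant replicate 2 and 0.0015 with median centring. Over 9 fibroblast markers it was 7.73 and 8.23 against 8.19 and 8.41, with 7 of 9 higher and a median of 0.15 that ran from 0.07 without control replicate 1 or mutant replicate 2 to 0.54 without control replicate 2. The 4 markers of glia and neurons and the 2 of red blood cells that have a probe set were all below the filter. The part of these cells in the Cd44 values was not tested.

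Mutant replicate 1 also held pancreatic transcripts, with a mean of 12.71 over 11 acinar genes against 4.27 to 4.71 in the other arrays. Without that array the differences were -1.54 for Sox4 1433575_at, -1.82 and -0.66 for Sox9 1451538_at and 1424950_at, and -0.76 and 0.02 for Cd44 1434376_at and 1423760_at, so that the 4 differences of probe sets with separate groups were each larger in size without it. RNA length was followed by the ratio of 5′ to 3′ signal for beta-actin, which stood at 0.149 and 0.0567 in control arrays against 0.0945 and 0.0448 in mutant arrays. It was higher in replicate 1 of both groups. Within each replicate number it was lower in the mutant array than in the control array, and it was lowest in mutant replicate 2. The ratio for Gapdh gave the same order, 0.116 and 0.0582 in control arrays against 0.104 and 0.0267 in mutant arrays. The part of RNA length in the results was not tested.

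**Figure D4:**
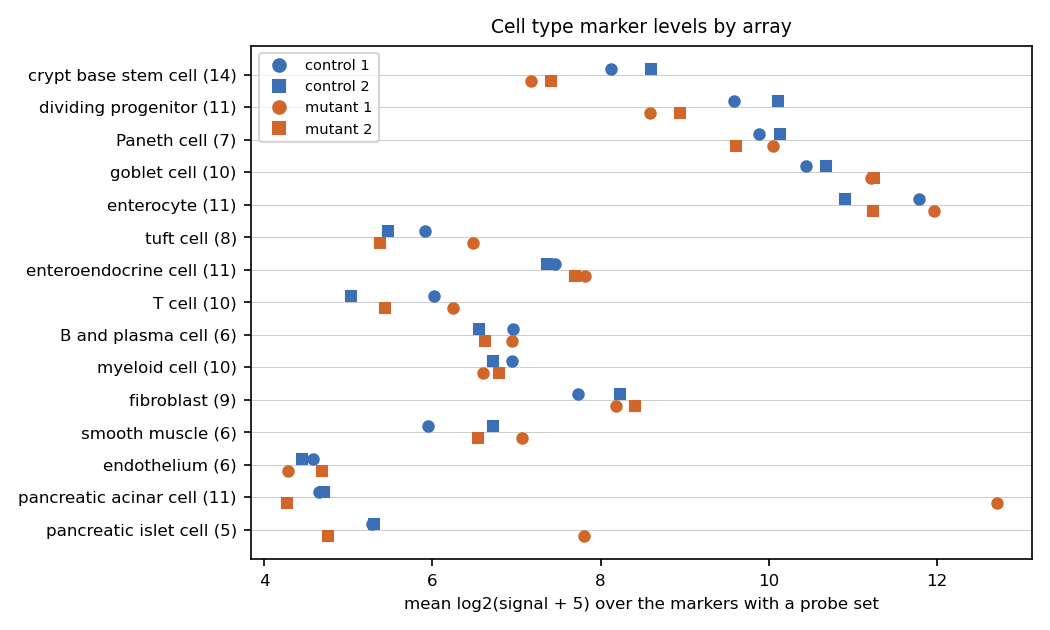
Mean log2(signal + 5) in each array over the listed markers of 15 cell types that have a probe set (number in brackets), with blue for control, orange for mutant, circles for replicate 1 and squares for replicate 2. Stem cell and progenitor markers are lower in both mutant arrays, and pancreatic acinar markers stand at 12.71 in mutant replicate 1 alone.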

How the data were processed

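The authors deposited 1 linear-scale intensity per probe set, made with MAS5, per the submitters' processing notes. Neither a version nor a scaling target is stated there. Mismatch signal is subtracted by MAS5, which leaves dim values noisy. Here 64 control probe sets were left out, and log2(intensity + 5) of the other 45037 was quantile normalized because the arrays' 2% trimmed means ran from 111 to 169. The 22519 probe sets at or above the median (50th percentile) were compared with limma 3.58.1 in R 4.3.3 (lmFit, eBayes with an intensity trend, no covariate, two-sided, 2 residual and 6.4 prior degrees of freedom), with Benjamini-Hochberg adjustment over all of them and a threshold of 0.05. SE and 95% intervals come from that fit. The number of arrays limits the precision.

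All probe sets of the 3 genes are reported. A listed gene is represented by its kept probe set with the highest mean, and up to 4 members with the smallest p are named, plus Ctnnb1, Axin2, the 3 genes nearest in pattern and markers high in 1 array (Clps); Esrp1, Esrp2 and Vil1 were chosen after their values were seen. The members, lists and rules were chosen with earlier results of these data known. Lists were given by counts and medians, with no set test. The fit was run on simulated data with normal noise, where the only condition set was a limit on the mean error. Power on the real arrays was not judged from it. Alternatives covered scaling, pseudocount, filter, variance estimation, a replicate block, leaving out each array and averaging a gene's probe sets; the Paneth list without Clps was added after seeing the data.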

Additional observations from a re-analysis of the deposited data

How the results depend on the processing

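None of the 7 kept probe sets passed the test under any of the 13 alternative fits that retained it. The number of probe sets called over the whole table was 0 with all arrays, quantile scaling and no replicate block. It was 2 with the deposited values unscaled and 102 with median centring, and it ran from 0 to 85 with 1 array left out (19 without mutant replicate 1 and 85 without mutant replicate 2). With the replicate number as a block it was 1; the numbers do not show that samples were paired, the correlation of the replicate differences of the 2 groups being 0.0339. The causes were not tested. Sox4 1419155_a_at reversed to 0.24 without control replicate 2 and to 0.02 without mutant replicate 1, and Sox4 1419156_at reversed to -0.88 without control replicate 1; leaving out 1 array gave ranges of -0.51 to 0.24 and -0.88 to 1.30. The other 5 kept their sign in every alternative that retained them. At the 75th percentile filter Sox4 1419156_at and both Sox9 probe sets were no longer tested. Of 277 list medians under alternatives, 37 moved by more than the spread between replicates. A fit that leaves out 1 array assumes that the lone sample varies like the other group. The number of arrays, 2 per group, limits the precision of every difference.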

Other observations

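Most kept probe sets of Ceacam1, an adhesion molecule gene listed here as a SOX9-responsive gene of gut epithelium, split the arrays across the groups. Its brightest probe set (1425538_x_at) stood at 11.20 and 8.001 in the control arrays, replicate 1 first, against 7.96 and 11.26 in the mutant arrays. In 5 of its 6 kept probe sets control replicate 1 and mutant replicate 2 both lay above the other arrays, and 1460681_at, which stood between 9.20 and 9.54 in all arrays, was the exception. Among these probe sets the wide splits were all in those with the suffix _x_at, while 1425675_s_at stood between 5.99 and 6.53 in all arrays. Which transcripts the _x_at probe sets read was not tested. The gene was singled out after its values were seen. None of the kept Sox4, Sox9 or Cd44 probe sets showed this order.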
